A study of Schizosaccharomyces pombe with 6 samples.

Results

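The input DNA of 6 tiling arrays was compared between fission yeast (Schizosaccharomyces pombe) that lacked the rad3 gene and fission yeast that carried it, to ask how far the genome had been copied in each. The arrays came from an RPA chromatin immunoprecipitation study, in which each array carried precipitated DNA in one dye and its input in the other, and the input of all 6 of 6 arrays was used. Of these, 3 arrays came from cdc25-22 rad3∆ cells, called rad3∆ here, and 3 from cdc25-22 cells, which the labels name WT although they carry the same cdc25 mutation. Both strains had been grown in EMM6S medium at 25 °C, held for 4 h at 36.5 °C, returned to 25 °C and given 6 mM hydroxyurea (HU). The titles also carry the number 60 with no unit. The labels call the molecule total RNA and describe an RNA extraction, so reading the channel named input as genomic DNA is an assumption. They also give the allele of the input channel of rad3∆ replicate 3 as cdc25-23, and that array was kept. Whether the replicates were grown as separate cultures is not stated, so no p-value here can be taken to cover the spread between cultures.

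The cdc25-22 mutation stops cells at the end of G2 at the restrictive temperature, and release sends them through mitosis into S phase together. HU starves cells of deoxyribonucleotides and slows replication forks. Rad3 is the fission yeast checkpoint kinase of the ATR family, which acts through the kinase Cds1 to steady stalled forks and to hold back late origins. Origins in this yeast lie mostly in A+T-rich intergenic islands. Centromere flanks and the silent mating-type region are known to replicate early, and the ends of chromosomes I and II late.

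The value used throughout is log2 of the input signal minus the median nuclear probe of the same array, averaged over the probes of a region. A region copied in every cell would stand 1 log2 unit (2 copies against 1) above a region copied in none. Probe brightness also differs from probe to probe and adds to the level. The part common to both strains drops out of rad3∆ minus WT, but brightness that differs between arrays stays in. Removing a fit on local G+C from each array changed some differences, as inside A+T-rich islands, from 0.050 to 0.0059. Because each array is set to its own median, a difference shared by the whole genome is removed, and the arrays can show only whether some regions were copied further than others. Arrays with the same number shared a slide and an input dye across strains, red in replicates 1 and 2 and green in replicate 3, and were compared as pairs. The number of arrays limits the precision: with 3 pairs an exact paired permutation test cannot give a two-sided p below 0.25, and an exact permutation of 3 arrays against 3 cannot go below 0.10.

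On each array at least 98.4% of the probes stood well above background, and 42466 nuclear probes were used. The deleted segment matched the strain labels. Of the 40 probes of the left-out stretch, the 24 that were well above background in no rad3∆ array were picked as lost. They lay on chromosome II between 904607 and 911114, and all 24 were well above background in every WT array. They read -7.18, -4.83 and -5.0 in rad3∆, against -0.38, -0.22 and -0.31 in WT. The rad3∆ values are floors set by the background subtraction, not copy numbers. Over all 39 unflagged probes of the left-out stretch, which also covers flanking DNA still present in rad3∆, the means were -4.52, -3.09 and -3.19 in rad3∆, against -0.36, -0.27 and -0.34 in WT, a difference of -3.28 ± 0.77 (SD, n = 3 pairs). The stretch was left out of everything that follows.

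The islands that stand in for origins are stretches with at least 75% A+T in 500 bp windows outside protein-coding sequence, of which the reference gave 335 with a median length of 650 bp. One is printed to show what such an island looks like, the A+T-richest that had at least 20 probes within 5 kb. It lies outside protein-coding sequence on chromosome I and is 600 bases long with 78.3% A+T. Its middle 300 bases are at chrI:3576551-3576850, plus strand, RefSeq assembly ASM294v3, with the 74 G and C in capitals to show how sparse they are.
A+T-rich island, chromosome I: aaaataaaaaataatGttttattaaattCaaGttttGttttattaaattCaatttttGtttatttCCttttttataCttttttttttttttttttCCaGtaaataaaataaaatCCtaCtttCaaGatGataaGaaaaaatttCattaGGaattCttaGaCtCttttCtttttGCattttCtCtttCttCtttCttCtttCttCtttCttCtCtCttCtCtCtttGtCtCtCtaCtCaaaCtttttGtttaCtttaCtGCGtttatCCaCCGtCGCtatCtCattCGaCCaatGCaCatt

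The 40 probes around that island averaged -0.589, -0.285 and -0.267 in rad3∆, against -0.530, -0.363 and -0.242 in WT. The strain difference was of either sign among the pairs and averaged -0.0014 ± 0.071 (SD, n = 3). A single island was therefore within the noise, and islands were read as a group.

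Over the genome, the input profiles of rad3∆ and WT had almost the same shape. In 617 bins of 20 kb with at least 10 probes, the SD of the level over bins was 0.216, 0.172 and 0.181 in rad3∆, against 0.204, 0.179 and 0.176 in WT. Neither strain was the more uneven in every pair, and the SD differed by 0.0035 ± 0.0097 (SD, n = 3 pairs; exact paired permutation, two-sided p = 0.75). Same-numbered arrays of the strains had Pearson correlations of 0.979, 0.964 and 0.973 across bins, which share probes and hence brightness. The difference within a pair had an SD over bins of 0.0444, 0.0478 and 0.0417, or about 3.13%, 3.37% and 2.93% of the signal.

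Little of that difference came back from one pair to the next. The bin differences of the pairs had correlations of 0.205 for pairs 1 and 2, 0.151 for pairs 1 and 3 and -0.130 for pairs 2 and 3, with rad3∆ and WT arrays used once each. The mean covariance between pairs corresponded to a repeating SD of 0.012 log2, or 0.858% of the signal. All 617 bins had a 95% confidence interval of the strain difference inside -0.2 to 0.2, and 568 had one inside -0.1 to 0.1. The outermost bounds were -0.15 and 0.16, against the step of 1 between uncopied and copied DNA. That step holds for a bin copied over its whole length in every cell. A shorter copied stretch would move the mean of a 20 kb bin by less. The intervals use limma's single SE of 0.026 for every bin, since the fit estimated infinite prior degrees of freedom and so gave all bins one variance.

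**Figure D1:**
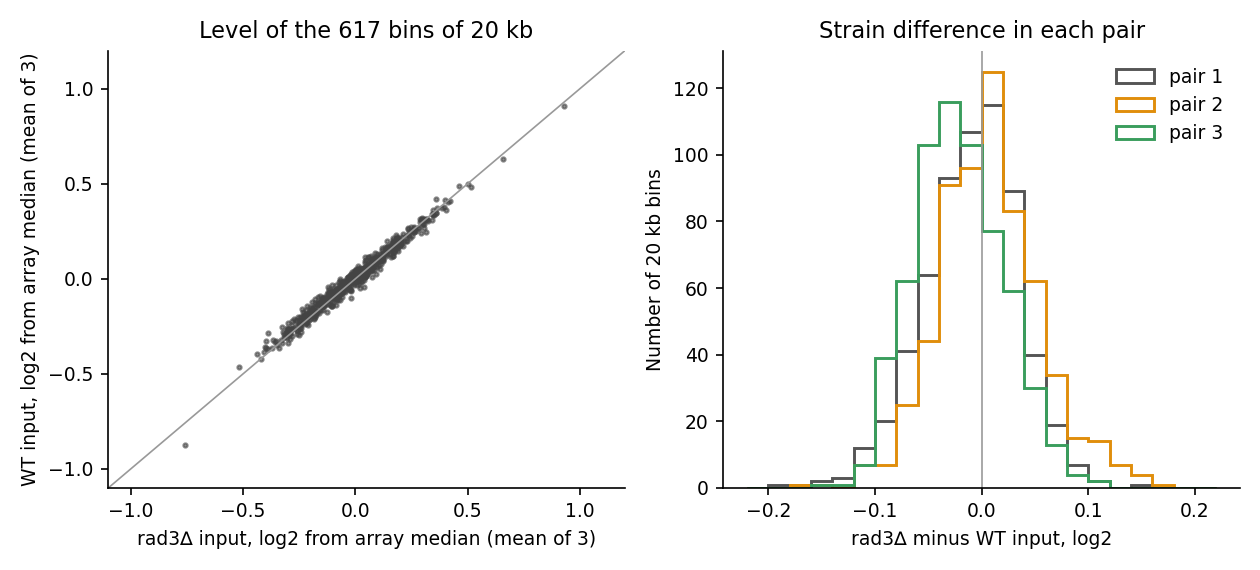
Left, mean input level of each 20 kb bin in rad3∆ (x axis) and WT (y axis), in log2 units from the array median with 3 arrays a strain; the line marks equal levels. Right, number of bins (y axis) by rad3∆ minus WT difference in log2 (x axis) for each pair; all 3 distributions lie around 0, with SDs between 0.0417 and 0.0478.

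With limma (replicate number as a block, Benjamini-Hochberg adjusted p under 0.05), 1 bin of 617 was higher in rad3∆ and 1 was lower, which is 0.162% of bins in each direction. Before adjustment, at p under 0.05, 9 bins (1.46%) were higher and 33 (5.35%) lower. The difference was above 0 in all pairs in 47 bins (7.62%) and below 0 in all pairs in 115 (18.6%), and the median over all bins was -0.0083. Only 7 bins (1.13%) had all rad3∆ arrays above all WT arrays, and 12 (1.94%) all below. These counts depend on where 0 is set, and centring on the array mean raised every bin difference. The bin at chromosome II 1620001-1640000, for example, went from 0.112 to 0.124.

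The higher bin was chromosome II 1620001-1640000, which lies beside the widest probe gap of the chromosome, at the centromere, and holds no protein-coding gene with a symbol. Its 24 probes read -0.45, -0.89 and -0.94 in rad3∆, against -0.61, -1.04 and -0.97 in WT. Each rad3∆ array was above its WT partner, but the strains overlapped. The difference was 0.11 (SE 0.026, limma adjusted p = 0.011), or 8.10% more signal. Its own 3 pairs had an SD of 0.070, which the SE shared by all bins does not reflect. The bin did not pass without replicate 1 (0.090, adjusted p = 1.0) or without replicate 2 (0.094, adjusted p = 0.092), and was 0.0072 (adjusted p = 0.90) with normexp background correction. It also did not pass with the median of probes (0.13, adjusted p = 0.27) or after the G+C loess (0.080, adjusted p = 0.87).

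The lower bin was chromosome II 760001-780000, which holds txl1, a thioredoxin-like protein of the proteasome, pre4, a proteasome subunit, dph6, of diphthamide synthesis, ubp10 and ckn1. Its 74 probes read -0.42, -0.36 and -0.39 in rad3∆, against -0.23, -0.27 and -0.36 in WT. Each rad3∆ array was below its WT partner, and the strains overlapped only through the lowest WT array, that of replicate 3. The difference was -0.10, with an SD of 0.080 over its own 3 pairs (shared SE 0.026, limma adjusted p = 0.026). With the median of the probes in place of the mean it was -0.041 (adjusted p = 0.89), and without replicate 1 it was -0.061 (adjusted p = 1.0).

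Among 250 bins of 50 kb, 1 (0.4%) was higher in rad3∆ and 0 (0.0%) were lower by the same limma test, while 5 (2.0%) were higher and 14 (5.6%) lower without adjustment of p. The higher bin was chromosome II 100001-150000, near the left end, with pfl7, a flocculin-like cell-surface protein, abc3, an ABC transporter, pho841, a phosphate transporter, and aat1 and mug14. Its 174 probes read 0.071, 0.123 and 0.029 in rad3∆, against 0.025, -0.016 and -0.039 in WT, and every rad3∆ array lay above every WT array, as in 2 of the bins (0.8%). The difference was 0.084, or 6.01% more signal, with an SD of 0.049 over its own 3 pairs (SE 0.020, again shared by all bins, limma adjusted p = 0.0089). With replicate 1, 2 or 3 left out the difference was 0.104, 0.057 and 0.092, and it no longer passed (limma adjusted p = 0.18, 0.18 and 0.41). With normexp it was 0.048 (adjusted p = 0.35).

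No call of either bin size held without the replicate block, where the adjusted p was 1.0 for all 3 named bins. None of the 5 bins of 50 kb with the most negative differences passed. They lay on chromosome III at 1650001-1700000, with gaf1, a GATA-type transcription factor, on chromosome I at 4600001-4650000, and on chromosome II at 750001-800000, around the lower 20 kb bin, at 900001-950000, with the TOR kinase gene tor2, a bin that holds the deleted segment and was averaged over its other 135 probes, and at 1550001-1600000. Their differences ran from -0.051 to -0.046. In 1 kb windows, 0 of 12033 passed in either direction (0.0% each; lowest limma adjusted p 0.949), and 130 (1.08%) were higher and 207 (1.72%) lower before adjustment. The deleted segment was not among these windows, and no other short loss or gain passed. Both windows that overlap ura4 were higher in rad3∆ in every pair, by 0.36 and 0.28, and did not pass (limma adjusted p 0.949). Short differences of that size could therefore go uncalled.

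DNA beside A+T-rich islands was richer in the input than DNA far from them in every array. After removal of a loess fit on local G+C, probes 0.5 to 5 kb from an island edge (8185 probes) exceeded those over 10 kb from any island (19074 probes) by 0.124, 0.119 and 0.129 in rad3∆, against 0.10, 0.107 and 0.10 in WT. As a share of signal that is 8.97% in rad3∆ and 7.35% in WT on average. Each rad3∆ array was above every WT array. The strain difference was 0.022 ± 0.0086 (SD, n = 3 pairs), or 1.51%, with the smallest p that both exact permutation tests allow (0.25 paired, 0.10 for 3 against 3). Brightness that follows other features of origins is part of the level in both strains and was not separated from copy number.

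By distance, the difference after the G+C correction was 0.0059 ± 0.0089 inside islands and 0.017 ± 0.0044 within 0.5 kb of one. It was 0.021 ± 0.012 at 0.5 to 1 kb, 0.0071 ± 0.011 at 1 to 2 kb and -0.016 ± 0.015 at 10 to 15 kb. Islands are defined by A+T in 500 bp windows, and the fit uses G+C over 500 bp, which averaged 26.4% inside islands. The fit can therefore also remove differences inside islands, so the corrected inside value cannot show where the difference was largest. Without the G+C correction the difference was 0.050 ± 0.084 inside islands, 0.028 ± 0.021 within 0.5 kb and 0.016 ± 0.017 at 0.5 to 1 kb. In the corrected values the 10 to 15 kb difference was -0.0028 in pair 2 and -0.032 in pair 3. Among 20 kb bins the median difference was -0.013 for 284 bins with no island, -0.0037 for 190 with 1 and 0.0073 for 51 with more. That order held in pairs 2 and 3 but not in pair 1, where the medians were -0.014, 0.0012 and -0.00071. With islands held to at least 80% A+T, which left 17, the difference was 0.0013.

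**Figure D2:**
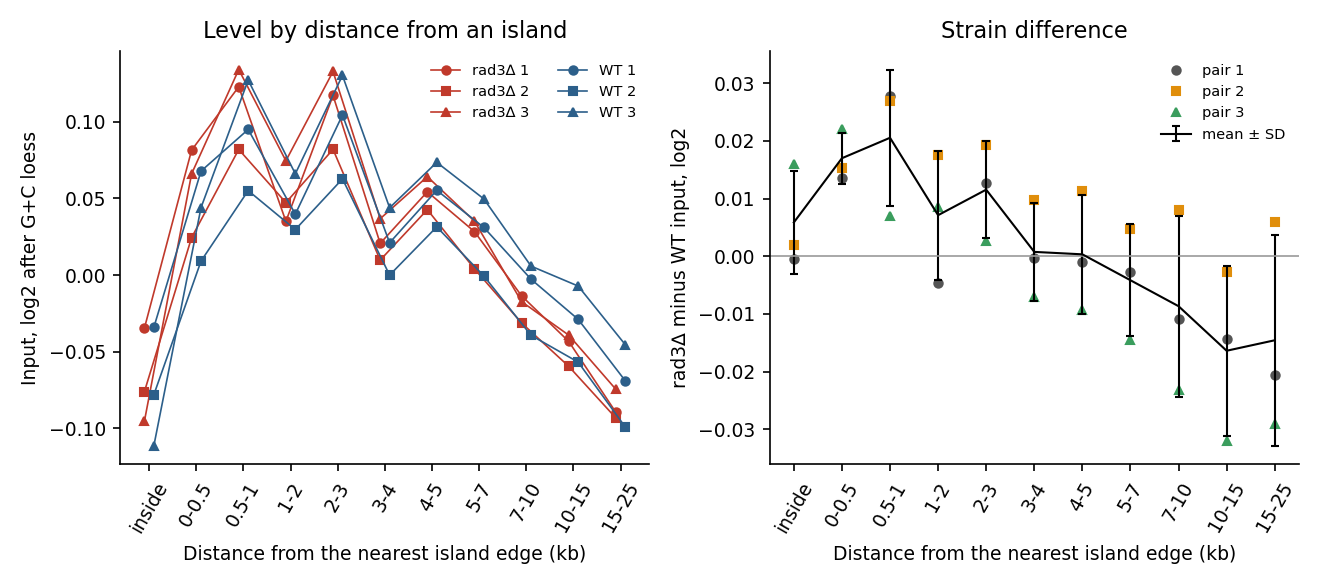
Left, input level after the G+C correction (y axis, log2) of each rad3∆ and WT array by distance from the nearest A+T-rich island (x axis, kb). Right, rad3∆ minus WT of the same corrected values for each pair with the mean and SD of the 3 pairs (y axis, log2). The mean is 0.0059 inside islands, 0.021 at 0.5 to 1 kb and -0.016 at 10 to 15 kb.

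The ends of chromosomes I and II, which replicate late, had a slightly higher mean input in rad3∆. The outer 200 kb (2552 probes) minus the rest of these chromosomes (31598 probes) read 0.043, 0.064 and 0.016 in rad3∆, against -0.0040, 0.016 and 0.011 in WT. The difference was 0.034 ± 0.024 (SD, n = 3 pairs), or 2.35%, with a paired exact permutation p of 0.25 and 0.20 for 3 against 3. It was 0.047 and 0.048 in pairs 1 and 2 and 0.0054 in pair 3, the pair with the input in green; dye and replicate cannot be told apart there. With the G+C correction it was 0.024 (paired p = 0.50, exact permutation).

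Arm by arm, the outer 200 kb differed by 0.020 ± 0.024 at the left and 0.040 ± 0.025 at the right of chromosome I, and by 0.041 ± 0.033 and 0.032 ± 0.026 at the left and right of chromosome II. Pair 3 was below 0 at the left of chromosome I. On chromosome III, whose ends carry ribosomal DNA, the differences were 0.0074 ± 0.011 at the left and 0.025 ± 0.018 at the right. Both ends of III were above 0 in every pair. Whether the ends of chromosomes I and II differ from those of III was not tested. Of the 39 outer 20 kb bins of I and II, 28 had a mean above 0, 9 were above 0 in all pairs, and 0 passed the test, with a median of 0.022. Of the other 460 bins of these chromosomes, 159 had a mean above 0 and 27 were above 0 in all pairs, with a median of -0.0094. In pair 3 the median over the outer bins was -0.020, beside -0.029 for the others, since most of that pair's bins were below 0. The higher 50 kb bin named above is part of the left end of chromosome II.

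**Figure D3:**
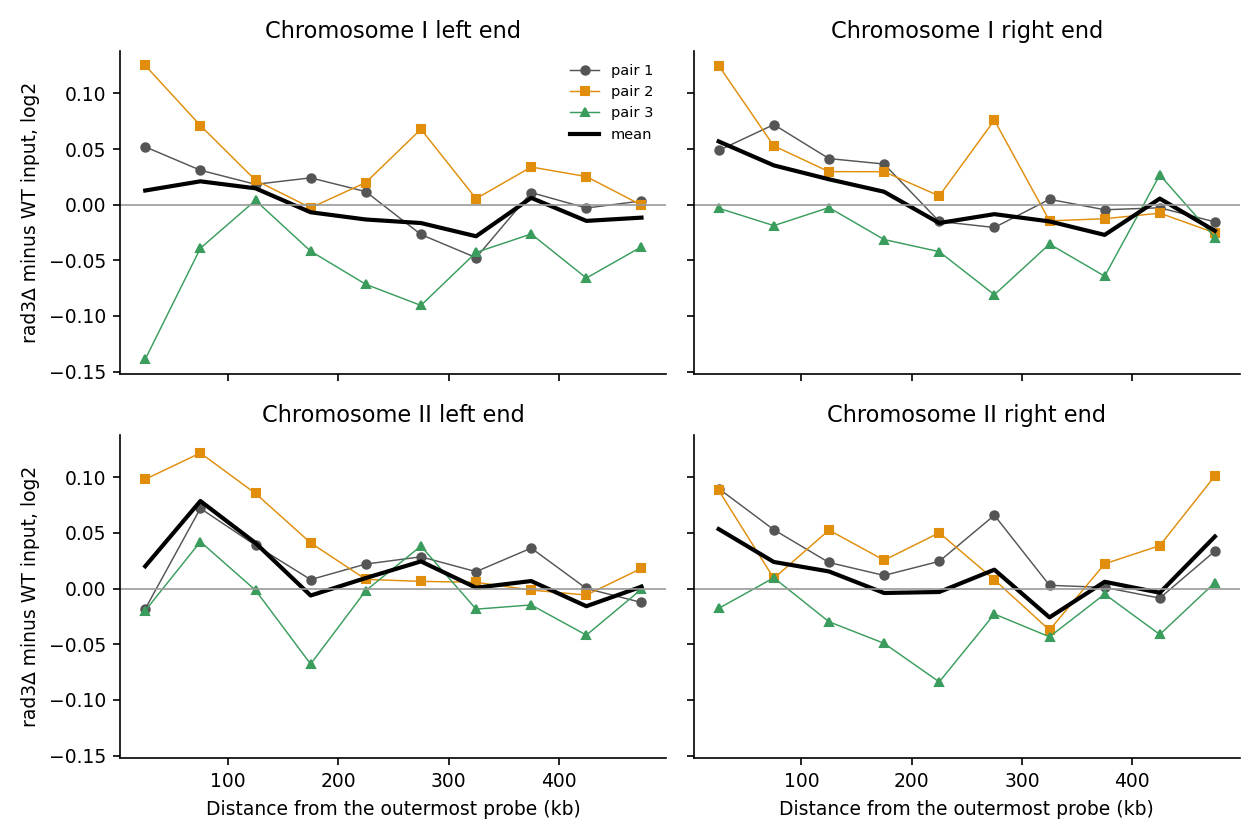
Rad3∆ minus WT input (y axis, log2) in 50 kb steps from the outermost probe (x axis, kb) at the 4 ends of chromosomes I and II, for each pair and for their mean. Pairs 1 and 2 lie mostly above 0 in the outer 150 kb, and pair 3 lies mostly below 0, as does its median over all 20 kb bins (-0.024).

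At the regions that replicate early, the mean differences were small and negative in the main setting. The centromere flank of chromosome II holds the higher 20 kb bin named above, at 0.11. Of the 4 bins of 20 kb in that flank, 1 had a mean above 0, and their median was -0.028. Probes within 50 kb of the centromeres differed by -0.021 ± 0.023 on chromosome I, -0.0065 ± 0.020 on II and -0.0063 ± 0.026 on III (SD, n = 3 pairs; exact paired permutation p = 0.50, 1.0 and 0.75), less than the spread between pairs. The sign turned on chromosome II within 25 kb (0.037), with the median of probes (0.024), without replicate 2 (0.0049) and with only probes above background (0.00073), and on chromosome III within 25 kb (0.0065), with the median (0.014) and without replicate 2 (0.0081). The mating-type region, the silent cassettes and mat1 with 25 kb on either side, read -0.175, -0.089 and -0.057 in rad3∆, against -0.110, -0.062 and -0.040 in WT. Each rad3∆ array was below its partner, by 0.036 ± 0.025 on average, while the strains overlapped (exact paired permutation p = 0.25). Without replicate 1 the difference was -0.022.

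Whole chromosomes differed by less than the spread between pairs, in means of probes that also hold any shift common to I, II and III. Chromosome I differed by -0.0094 ± 0.019, II by -0.0054 ± 0.019 and III by -0.011 ± 0.012, each the mean of all its probes and each with an exact paired permutation p of 0.50 or more. Against the step of 1 between DNA copied in all cells and in none, the mean differences were 0.022 beside islands, 0.034 at the pooled ends of I and II and -0.036 at the mating-type region (-0.022 without replicate 1). An average over islands or ends would move by less than that step if only some of its DNA, or only some cells, had been copied. Islands also lie within the ends of I and II, so the island and end values share probes and are not independent.

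**Figure D4:**
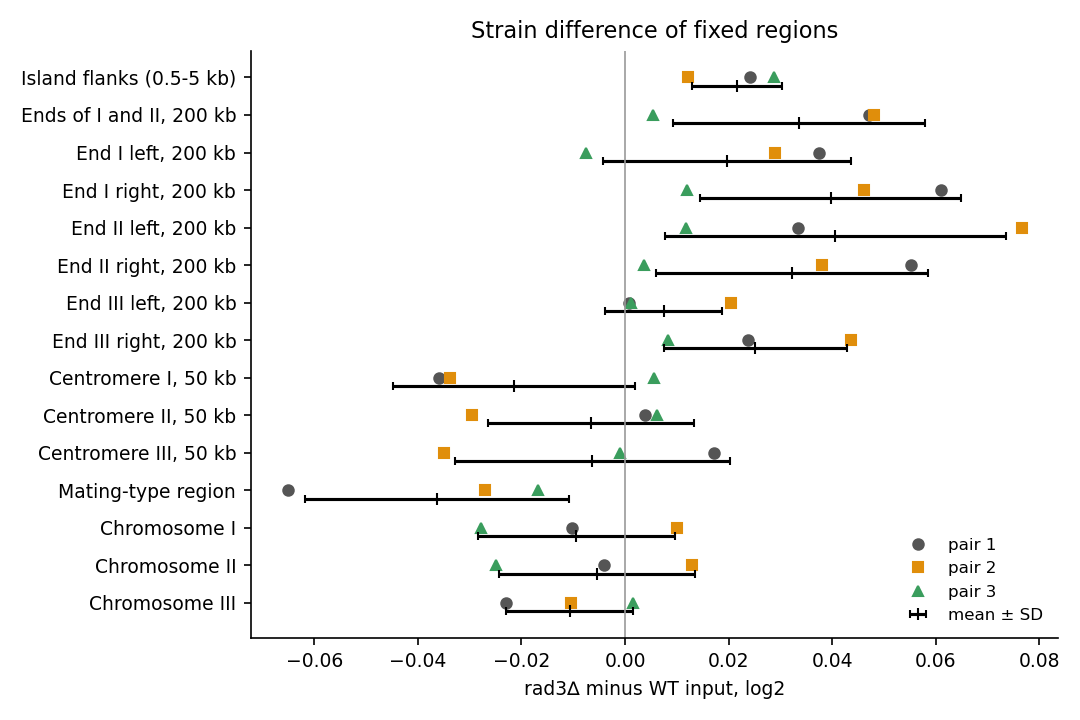
Rad3∆ minus WT input in log2 (x axis) of the regions named at left, with 1 symbol for each pair and the mean and SD of 3 pairs below. The island flanks, the pooled ends of I and II and both ends of III are above 0 in every pair. The mating-type region is below 0 in every pair, and the centromere flanks and whole chromosomes fall on both sides of 0.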

How the data were processed

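The authors deposited 1 Agilent Feature Extraction output per array; the signals are intensity values which, per the file headers, were background-subtracted, spatially detrended and dye-normalized by a linear factor under protocol CGH_107_Sep09. Headers name Feature Extraction 10.7.1.1 for replicate 1 and 10.7.3.1 for the rest; the submitters' processing notes give 10.7.3.1. The input channel only was read. The 136 nuclear probes flagged in any array were left out. log2 values were computed from the deposited processed signals. Bins needed 10 probes (20 kb), 25 (50 kb) or 2 (1 kb). Positions are array positions on a build the headers label Feb2002; checked by base composition, 107 of 126 segments of 100 kb were used with the ASM294v3 reference, and chromosome I from 3700001 on, where 18 segments stood 6149 to 6150 bp off, was not used with it. Gene names, islands and the G+C correction therefore cover 36249 probes.

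limma 3.58.1 (R 4.3.3) fitted all 6 arrays with a strain term and the replicate number as a block, with 2 residual degrees of freedom, and was tested on simulated data. The pairing comes from the shared slide and dye in the headers and labels; at 20 kb, deviations from the strain mean correlated at 0.862, 0.559 and 0.824 between same-numbered arrays. Single values, 24 in all, used exact sign flips of 3 pairs and exact permutation of 3 arrays against 3, unadjusted. Regions, lists and tests were chosen with earlier results of these data known. Named bins are those past the threshold, or where none passed in a direction the 5 largest, and all fixed regions. The alternative background correction used normexp (offset 50) on the median spot signals, since the files hold no mean signals. Other alternatives were probes above background, centring on the mean, G+C loess, equal spread, no block (dye as the only covariate), other bin and flank sizes, the median of probes and leaving out each replicate.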

Additional observations from a re-analysis of the deposited data

How the results depend on the processing

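The calls of single bins rested on the settings. Without the replicate block, with normexp and with the G+C loess removed, 0 bins of 20 kb were higher and 0 lower, and 0 bins of 50 kb were higher. Bins of 10 kb gave 0 and 0, and bins of 100 kb gave 0 higher. With the median of probes there were 0 lower bins of 20 kb and 0 higher of 50 kb, and the 1 higher bin of 20 kb was not the one named. Only probes above background, and equal spread, each gave 0 lower bins of 20 kb. Centring on the array mean gave 3 higher and 1 lower of 20 kb and 2 higher of 50 kb. Without 1 replicate at a time, 0 to 1 bins of 20 kb were higher and 0 to 5 lower (5 without replicate 2), and 0 of 50 kb were higher (lowest and highest 0). The centromere II flank, -0.0065 as reported, was 0.037 within 25 kb and 0.024 with the median of probes, a setting chosen after seeing the data; the centromere III flank, -0.0063 as reported, was 0.0065, 0.014 and, without replicate 2, 0.0081. normexp gave chromosomes I, II and III -0.052, -0.047 and -0.049 and the stretch around the deleted segment (39 probes) -1.15, against -3.28 as reported; the offset of 50 adds the same signal to lost and kept probes. The chromosome values are means of probes centred on the median probe, so a shift common to I, II and III is not a difference between chromosomes. Islands of at least 80% A+T gave 0.0013 (17 islands).

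Bins that did not pass and changed sign were chromosome I 1000001-1020000 (0.0022) and 4600001-4650000 (0.019) and chromosome II 1550001-1600000 (0.00036) with the median of probes, chromosome II 1600001-1650000 (-0.013) with normexp, and chromosome II 4000001-4050000 with normexp (-0.012) and the median (-0.0085). The cause was not tested. The island difference stayed between 0.015 and 0.026 and that at the ends of I and II between 0.024 and 0.048 under the other alternatives run, each above 0. The 0.024, from the G+C correction, leaves out the right end of chromosome I. The replicate block changed no other call, since the single values cannot pass with 3 pairs.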

Other observations

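Mitochondrial DNA is copied outside S phase and was the brightest class on the arrays. Its 50 probes read 4.99, 6.27 and 4.98 in rad3∆, against 4.8, 5.46 and 4.97 in WT. The difference was 0.34 ± 0.42 (SD, n = 3 pairs), most of it in pair 2 (0.81), and the exact paired permutation p was 0.25, the smallest possible.

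The ura4 gene on chromosome III, an enzyme gene of pyrimidine synthesis that is often used as a marker, was looked at among 4 such genes after its values had been seen, so no test is given. Its 4 probes read 0.80, 1.02 and 0.89 in rad3∆, against 0.45, 0.76 and 0.43 in WT, with every rad3∆ array above every WT array and a mean difference of 0.36 ± 0.094 (SD, n = 3 pairs). The labels do not say which marker replaced rad3. The other markers gave -0.074 ± 0.089 for his3, -0.13 ± 0.23 for leu1 and -0.19 ± 0.21 for ade6.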
